A study of Mus musculus with 12 samples.

Results

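The 40 genes described here encode proteins of the sarcomere and its Z-disc, together with factors that build, regulate and turn over the sarcomere and proteins of muscle energy supply. They were chosen by name, as a fixed list of gene symbols, from the 55679 rows of the gene table, and all 40 were found. By role they fell into the thick filament (5 genes), the thin filament (7), titin and the M-band (4), the Z-disc with desmin (15), assembly factors, kinases and turnover enzymes (6), and creatine kinases with myoglobin (3).

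In striated muscle, myosin thick filaments pull on actin thin filaments when calcium binds the troponin complex. The thin filaments are anchored at the Z-disc, the thick filaments at the M-band, and titin spans from the Z-disc to the M-band. The sleeve of cardiac muscle around mouse pulmonary veins extends into the lung, so that lung RNA can hold cardiac sarcomere transcripts as well as those of vascular and airway smooth muscle.

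RNA-Seq was carried out on total RNA from the whole heart and the lung of 6 adult male mice of the 129S6/SvEvTac strain, 3 wild type (WT) and 3 Adam19 knockout (KO). Adam19 encodes a membrane-anchored metalloproteinase. KO mice carried, in every tissue and on both alleles, a tdTomato construct in place of exons 6 and 7 of Adam19. Each mouse gave 1 heart library and 1 lung library, 12 in all, so that each genotype and tissue had 3 libraries. The labels name no treatment. The libraries held 17674788 to 35862932 estimated read counts, with heart WT replicates 2 and 3 at 20381284 and 18392292 against at least 31784742 in the other hearts. The values below are the deposited gene values, normalised transcript abundance on the log2 scale, where a difference of 1 is a 2-fold difference.

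The labels were checked before the members were compared. Adam19 read 9.17, 9.25 and 10.27 in the WT hearts and 6.67, 6.01 and 6.56 in the KO hearts, and 9.14, 9.41 and 9.12 in the WT lungs and 4.44, 3.21 and 3.50 in the KO lungs. It was lower in KO in both tissues, by the limma test with Benjamini-Hochberg adjustment (heart adjusted p = 0.00558, lung adjusted p = 1.86e-04). The differences were -3.14 in heart and -5.51 in lung, and -7.05 and -8.86 with its transcripts summed. All 7 lung epithelium markers were higher in lung than in heart, with a median difference of 10.46 (log2), and the ventricular light chain Myl2 read 17.12 to 17.52 in the hearts and 2.53 to 8.31 in the lungs.

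Some libraries stood apart in muscle of other kinds or in lung epithelium markers. The summed level of 17 skeletal muscle genes was 12.66 (log2) in lung WT replicate 2 and 7.88 to 8.08 in the other lungs, with the skeletal actin Acta1 at 10.27 there and at most 3.80 elsewhere in lung. In heart KO replicate 2 this sum was 14.55, against 13.03 to 13.45 in the other hearts. The summed level of 5 atrial genes was 14.87 in heart WT replicate 3 and 16.03 in heart KO replicate 2, against 16.50 to 17.25 in the other hearts. The sum of 7 lung epithelium markers was 9.88 in heart WT replicate 3, 10.72 in heart KO replicate 1 and 9.58 in heart KO replicate 2. It was 6.55 to 7.62 in the other hearts. A 7SL RNA gene, Rn7s1, took 2.1% to 33.97% of gene abundance in the lungs and 2.7% to 11.76% in the hearts. Without the 2 hearts low in atrial genes, the median difference between lung and heart was -6.37 over the members and -4.22 over the atrial genes, and without the 3 lungs with over 20% of Rn7s1 it was -6.58 over the members, with all 40 called lower in lung in each case. With all libraries these medians were -6.45 and -3.37.

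**Figure D1:**
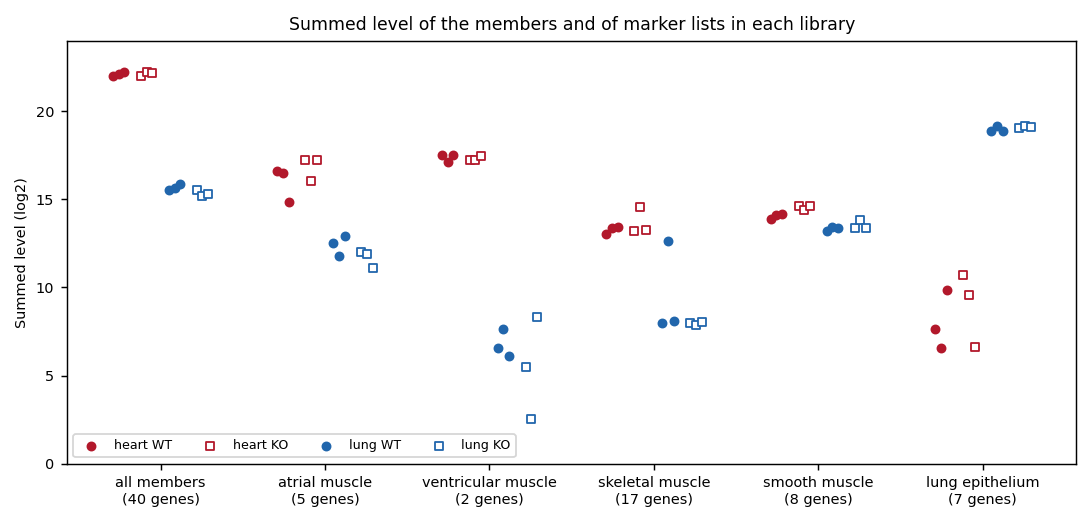
Summed level (log2) of the 40 members and of 5 marker lists in each of the 12 libraries, with filled circles for WT, open squares for KO, red for heart and blue for lung. The members sum to 21.99 to 22.25 in the hearts and 15.17 to 15.87 in the lungs, and 1 WT lung stands above the others in skeletal muscle genes.

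The first comparison asked at what level the sarcomere genes were present in lung. All 40 members were lower in lung than in heart, and for each the 6 lungs lay below the 6 hearts. Across all 17666 genes tested, 21.2% were called lower in lung (adjusted p under 0.05, at least 1.5-fold, a group mean of at least 6, limma). The median over the members was -6.45 (log2), or 1.14% of the heart level, while the median of all genes was 0.31. The differences ran from -8.98 for Myl3 to -1.56 for Nebl, and 24 of the 40 lay within 1 log2 unit of the median. Relative to the mean of the WT hearts, the median over members was -6.35, -6.30 and -6.49 in the WT lungs and -6.39, -6.76 and -6.89 in the KO lungs. In bulk tissue, fewer muscle cells and less RNA per muscle cell cannot be told apart. Reads carried over between heart and lung when the organs were removed were not tested. The ventricular markers Myl2 and Irx4 had a median difference of -10.13, the 5 atrial markers -3.37 (-4.22 without the 2 hearts low in atrial genes), and Bmp10, the atrial growth factor of that list, was listed at 0 in all 6 lungs.

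**Figure D2:**
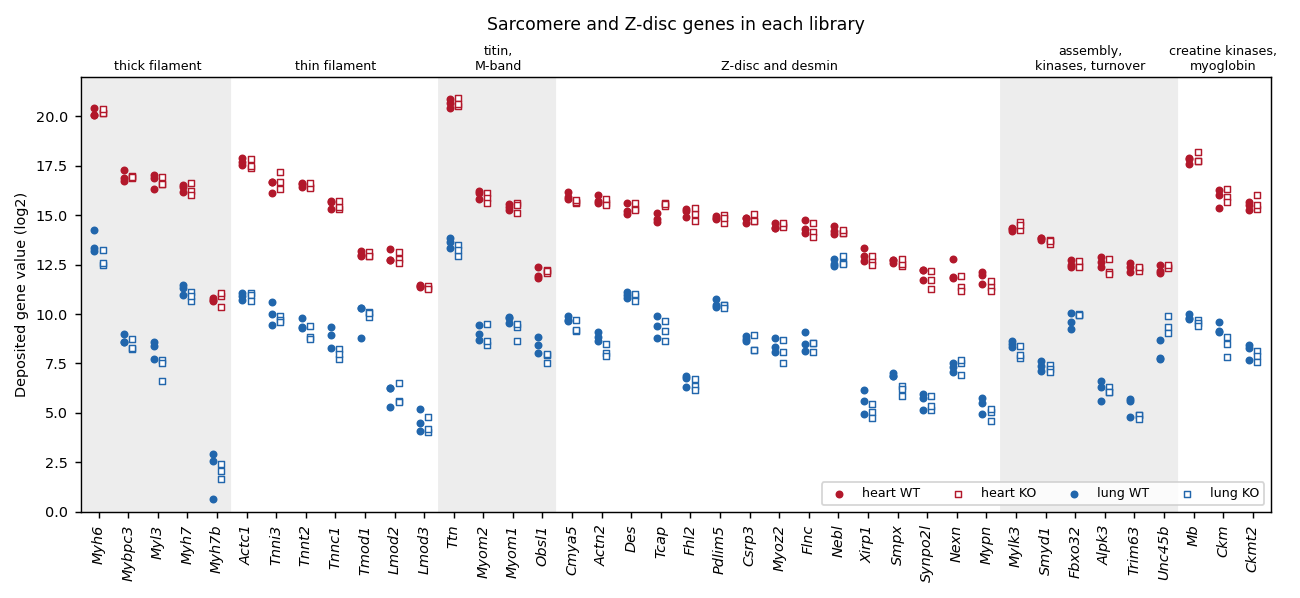
Deposited gene value (log2) of each of the 40 members in each library, ordered by role and by heart level, with filled circles for WT, open squares for KO, red for heart and blue for lung. Every heart lies above every lung for each member, and the gap is smallest for Nebl.

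By median, the 5 thick filament genes were the most reduced role group in lung, at -8.39. Myl3, the ventricular essential light chain of myosin, read 16.90, 16.32 and 17.02 in the WT hearts and 16.60, 16.59 and 16.92 in the KO hearts. The same gene read 7.73, 8.59 and 8.38 in the WT lungs and 7.68, 6.62 and 7.51 in the KO lungs. Its difference was the largest of all members, -8.98 ± 0.21 (log2, SE, adjusted p = 1.76e-12), or 0.199% of heart. Myh6, the fast alpha myosin heavy chain that dominates in the adult mouse heart, read 20.05, 20.09 and 20.44 in the WT hearts and 20.19, 20.16 and 20.37 in the KO hearts. In the WT lungs Myh6 read 13.36, 13.20 and 14.24, and in the KO lungs 13.25, 12.46 and 12.58. The Myh6 difference was -7.04 ± 0.23, or 0.762% of heart. Myh7, the slow beta heavy chain, ranged 16.04 to 16.65 (median 16.32) in the hearts and 10.66 to 11.45 (median 11.02) in the lungs. Its difference was -5.28 ± 0.14, or 2.57% of heart, so that Myh7 was reduced less than Myh6. Mybpc3, the cardiac myosin-binding protein C, read 16.90, 16.73 and 17.27 in the WT hearts and 16.87, 17.01 and 16.93 in the KO hearts. In lung it read 8.99, 8.57 and 8.56 in WT and 8.72, 8.25 and 8.27 in KO, a difference of -8.39 ± 0.13 with no overlap between tissues. Myh7b, a slow myosin gene, read 10.66, 10.69 and 10.83 in the WT hearts and 10.92, 11.08 and 10.37 in the KO hearts. Its lung values were 2.90, 2.57 and 0.66 in WT and 1.65, 2.08 and 2.43 in KO, so that every lung was under the floor of 3.46 used to filter genes, and its difference of -8.71 ± 0.33 rests on few reads in lung. With a pseudocount of 10 it was -7.01.

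The balance of the heavy chains was followed on a per-length scale, as the share of Myh7 in the sum of Myh6, Myh7 and Myh7b. This share was 9.38%, 10.3% and 8.96% in the WT hearts and 9.07%, 11.7% and 7.50% in the KO hearts. It was 27.7%, 28.2% and 14.9% in the lungs of the same WT mice and 24.4%, 29.8% and 31.2% in those of the KO mice. The share was higher in lung in 6 of 6 mice, by 16.6 percentage points on average (exact paired sign permutation test, two-sided, p = 0.03125, the smallest that 6 mice allow). This value was chosen after the levels had been seen. The share counts each transcript of a gene by its own length, so that short transcripts weigh more. Of the Myh7 counts, a retained-intron transcript of 595 bases held 10.8% in heart and 2.05% in lung on average. The main transcript, of 6135 bases, held 89.05% and 94.6%. The share is thus not that of full-length transcripts alone, and the part of the short transcript in it was not tested. With the longest transcript of each gene as its length, short transcripts gain no extra weight. The means were then 5.55% in heart and 21.3% in lung.

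In the thin filament the median difference was -6.92. Actc1, the cardiac alpha-actin, read 17.53, 17.71 and 17.90 in the WT hearts and 17.39, 17.82 and 17.47 in the KO hearts. In lung it read 11.06, 10.89 and 10.70 in WT and 11.09, 10.97 and 10.66 in KO, a difference of -6.74 ± 0.13. The troponins are the calcium switch of the thin filament. Tnnt2, which ties the complex to tropomyosin, ranged 16.36 to 16.65 (median 16.50) in the hearts and 8.73 to 9.81 (median 9.30) in the lungs. Tnni3, the inhibitory subunit, ranged 16.12 to 17.21 (median 16.66) in the hearts and 9.44 to 10.63 (median 9.80) in the lungs. Tnnc1, the calcium-binding subunit, ranged 15.33 to 15.73 (median 15.56) in the hearts and 7.75 to 9.33 (median 8.24) in the lungs. Their differences lay close together, at -7.29 ± 0.14, -6.73 ± 0.21 and -7.12 ± 0.17. The leiomodins Lmod2 and Lmod3, which nucleate and lengthen actin filaments, differed by -6.97 ± 0.22 and -6.92 ± 0.19. Lmod2 ranged 12.56 to 13.31 (median 12.77) in the hearts and 5.29 to 6.54 (median 5.92) in the lungs. Lmod3 ranged 11.29 to 11.46 (median 11.40) in the hearts and 4.03 to 5.21 (median 4.33) in the lungs. Tmod1, which caps the pointed end of actin filaments and also belongs to the membrane skeleton of red cells, stood apart from this group. It read 10.31, 10.30 and 8.80 in the WT lungs and 10.12, 9.86 and 10.07 in the KO lungs against 12.95, 13.18 and 12.98 in the WT hearts and 12.94, 13.13 and 12.96 in the KO hearts. The difference was -3.12 ± 0.22, or 11.5% of heart. None of 5 red cell markers was called between the tissues (0 of 5 also at an unadjusted p under 0.05), with a median difference of 0.52 and a summed level of 12.81 to 15.80 in the hearts and 12.85 to 17.16 in the lungs, and their part in the Tmod1 level was not tested.

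Titin and the M-band genes had a median of -6.50. Ttn, the giant spring of the sarcomere, read 20.43, 20.89 and 20.69 in the WT hearts and 20.51, 20.91 and 20.62 in the KO hearts. In the WT lungs it read 13.37, 13.66 and 13.83 and in the KO lungs 13.48, 12.93 and 13.22, a difference of -7.26 ± 0.19. The myomesins link thick filaments at the M-band. Myom1 ranged 15.12 to 15.62 (median 15.48) in the hearts and 8.64 to 9.84 (median 9.54) in the lungs, and Myom2 ranged 15.61 to 16.20 (median 15.99) in the hearts and 8.44 to 9.52 (median 8.83) in the lungs. Their differences were -5.98 ± 0.15 and -7.01 ± 0.19. Obsl1, an obscurin-like protein that is also expressed outside muscle, read 11.92, 11.80 and 12.39 in the WT hearts and 12.22, 12.07 and 12.16 in the KO hearts. The lungs gave 8.44, 8.03 and 8.82 in WT and 7.94, 8.005 and 7.54 in KO. At -3.97 ± 0.15, or 6.4% of heart, it was reduced less than titin and the myomesins.

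The 15 genes of the Z-disc and desmin group had a median of -6.20 and the widest spread, from -8.56 for Fhl2 to -1.56 for Nebl. Fhl2, a LIM-domain protein that binds titin, read 15.19, 14.93 and 15.31 in the WT hearts and 14.71, 15.06 and 15.38 in the KO hearts. In lung it read 6.79, 6.84 and 6.31 in WT and 6.34, 6.18 and 6.73 in KO, a difference of -8.56 ± 0.15. Cmya5, or myospryn, had the highest deposited heart value of the group. It read 15.93, 16.18 and 15.83 in the WT hearts, 15.60, 15.65 and 15.76 in the KO hearts, 9.68, 9.90 and 9.66 in the WT lungs and 9.69, 9.14 and 9.20 in the KO lungs. Actn2, the sarcomeric alpha-actinin that crosslinks actin at the Z-disc, ranged 15.53 to 16.04 (median 15.67) in the hearts and 7.87 to 9.09 (median 8.55) in the lungs, a difference of -7.24 ± 0.13. The 7 members named next differed by -7.53 for Xirp1 to -5.81 for Flnc, and each lay apart between the tissues. These were Xirp1, which repairs and organises actin at the Z-disc and intercalated disc, Mypn, Synpo2l and Myoz2, which bind alpha-actinin, Csrp3, a muscle LIM protein, Tcap, the titin cap, and Flnc, the muscle filamin. In the hearts the medians of these 7 ran from 11.61 for Mypn to 15.28 for Tcap, and in the lungs from 5.13 for Mypn to 9.27 for Tcap. Xirp1 ranged 12.48 to 13.33 (median 12.81) in the hearts and 4.72 to 6.15 (median 5.25) in the lungs. Mypn ranged 11.15 to 12.13 (median 11.61) in the hearts and 4.57 to 5.73 (median 5.13) in the lungs. Synpo2l ranged 11.26 to 12.25 (median 11.96) in the hearts and 5.13 to 5.98 (median 5.56) in the lungs. For each of these 3 every heart lay above every lung, as for the 4 given next. Myoz2 ranged 14.33 to 14.61 (median 14.46) in the hearts and 7.52 to 8.80 (median 8.22) in the lungs. Csrp3 ranged 14.61 to 15.07 (median 14.78) in the hearts and 8.18 to 8.92 (median 8.70) in the lungs. Tcap ranged 14.68 to 15.62 (median 15.28) in the hearts and 8.62 to 9.91 (median 9.27) in the lungs. Flnc ranged 13.89 to 14.76 (median 14.22) in the hearts and 8.08 to 9.12 (median 8.51) in the lungs. Smpx, a small muscle protein, and Cmya5 differed by -6.10 ± 0.11 and -6.28 ± 0.12. Smpx ranged 12.45 to 12.79 (median 12.66) in the hearts and 5.87 to 7.04 (median 6.62) in the lungs. Nexn, an actin-binding Z-disc protein, ranged 11.15 to 12.77 (median 11.87) in the hearts and 6.91 to 7.69 (median 7.41) in the lungs, a difference of -4.49 ± 0.20. Des, the intermediate filament of all muscle types, ranged 15.07 to 15.62 (median 15.29) in the hearts and 10.65 to 11.10 (median 10.93) in the lungs, a difference of -4.44 ± 0.12. Pdlim5, a PDZ and LIM scaffold, read 14.87, 14.97 and 14.83 in the WT hearts and 14.59, 15.01 and 14.86 in the KO hearts. Its lung values were 10.36, 10.46 and 10.78 in WT and 10.46, 10.48 and 10.30 in KO, a difference of -4.38 ± 0.11 (-3.28 with summed transcripts).

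Nebl, which encodes the actin-binding Z-disc protein nebulette, was the member least reduced in lung. It read 14.21, 14.47 and 14.04 in the WT hearts and 14.08, 14.11 and 14.28 in the KO hearts. It read 12.42, 12.79 and 12.53 in the WT lungs and 12.59, 12.55 and 12.93 in the KO lungs, a difference of -1.56 ± 0.12 (adjusted p = 5.52e-08), or 33.8% of heart. The next members in this order were Fbxo32 at -2.72 ± 0.13, Tmod1, and Unc45b at -3.57 ± 0.18. With summed transcripts Nebl, Fbxo32 and Tmod1 kept these places, while Unc45b stood at -4.45, beside Obsl1 at -4.44, and Pdlim5 at -3.28 came next to Tmod1. No other member moved by over 1.5-fold with that sum.

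Among assembly factors, kinases and turnover enzymes the median was -6.22. Smyd1, a methyltransferase of myofibril assembly, ranged 13.56 to 13.85 (median 13.74) in the hearts and 7.06 to 7.61 (median 7.29) in the lungs, a difference of -6.44 ± 0.10. Mylk3, the cardiac myosin light chain kinase, had the highest deposited heart value of the group, at 14.28, 14.20 and 14.37 in the WT hearts and 14.67, 14.25 and 14.53 in the KO hearts. In lung it read 8.35, 8.49 and 8.63 in WT and 8.39, 7.79 and 7.91 in KO, a difference of -6.13 ± 0.12. Alpk3, an alpha-kinase family member of the M-band, and Trim63, the ubiquitin ligase MuRF1, differed by -6.32 ± 0.18 and -7.24 ± 0.15. Alpk3 ranged 12.04 to 12.88 (median 12.51) in the hearts and 5.60 to 6.61 (median 6.17) in the lungs. Trim63 ranged 12.13 to 12.59 (median 12.36) in the hearts and 4.69 to 5.69 (median 4.91) in the lungs. Fbxo32, the ubiquitin ligase subunit atrogin-1, read 9.62, 10.04 and 9.25 in the WT lungs and 9.99, 9.93 and 9.94 in the KO lungs against 12.47, 12.74 and 12.38 in the WT hearts and 12.44, 12.66 and 12.37 in the KO hearts, and so stood at 15.2% of heart. Unc45b, a myosin chaperone, stood at 8.44% (4.56% with summed transcripts). Of the energy genes, Mb, the oxygen store myoglobin, read 17.92, 17.60 and 17.83 in the WT hearts and 17.72, 17.73 and 18.22 in the KO hearts. The lungs gave 9.76, 9.82 and 9.99 in WT and 9.68, 9.55 and 9.42 in KO, a difference of -8.14 ± 0.12. Ckmt2, the mitochondrial creatine kinase of muscle, read 15.52, 15.27 and 15.67 in the WT hearts and 15.33, 15.51 and 16.02 in the KO hearts. Its lung values were 8.28, 7.67 and 8.44 in WT and 8.13, 7.87 and 7.59 in KO, a difference of -7.56 ± 0.16. Ckm, the cytosolic form, ranged 15.34 to 16.32 (median 15.96) in the hearts and 7.81 to 9.59 (median 8.99) in the lungs, a difference of -7.09 ± 0.21.

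**Figure D3:**
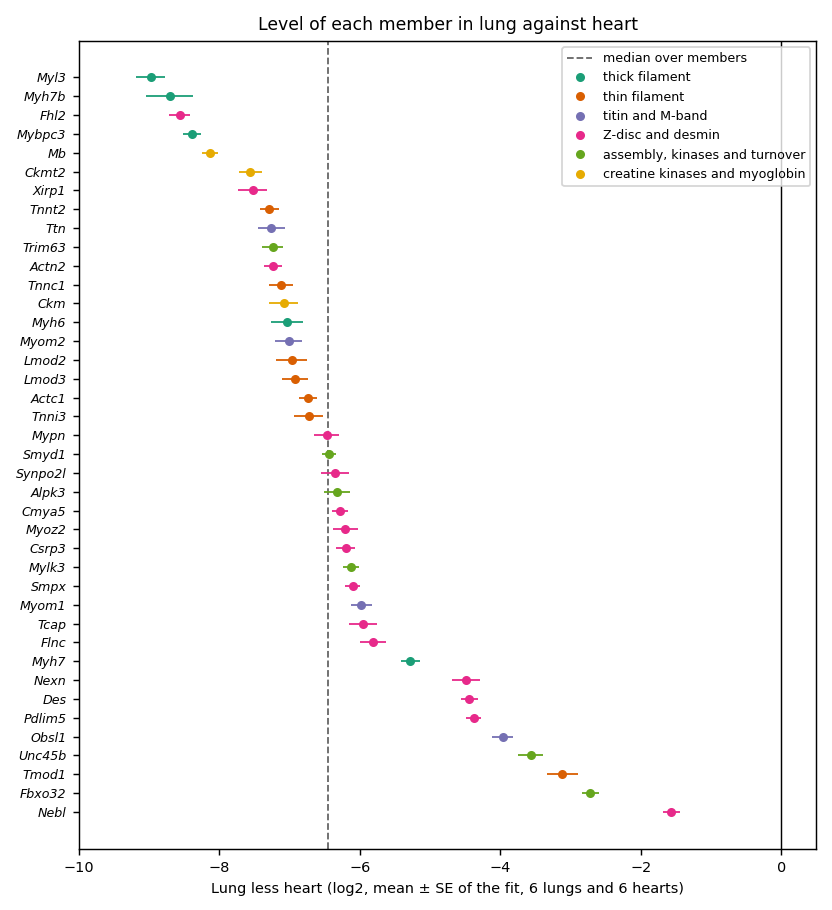
Difference between lung and heart (log2) of each of the 40 members with the standard error of the fit, coloured by role, from the member most reduced in lung at the top to the least reduced at the bottom. The dashed line is the median over members, -6.45, and 8 members from Nexn to Nebl lie to the right of -5.

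Along this order, 30 of the 39 neighbouring pairs lay no farther apart than the sum of their standard errors. The 9 wider gaps were those from Mybpc3 to Mb and from Mb to Ckmt2 near the top, and, toward the less reduced end, those from Flnc to Myh7, Myh7 to Nexn, Pdlim5 to Obsl1, Obsl1 to Unc45b, Unc45b to Tmod1, Tmod1 to Fbxo32 and Fbxo32 to Nebl. Of 23 other striated muscle genes outside the list, 19 were called lower in lung and 2 higher, with a median of -5.75. Of 8 smooth muscle genes, 3 were called lower and 2 higher, with a median of -0.38. The difference between the lists was not tested.

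Levels of different genes were compared per length, as estimated counts divided by transcript length and scaled to a sum of 1000000 over all genes. Per length, the members made up 4.81% to 6.55% of the total in the hearts and 0.0306% to 0.077% in the lungs. The total includes Rn7s1, which differed between lungs. In heart, Myh6 at 10406 ± 1683 (SD, n = 6) and Mb at 10084 ± 1112 on this scale were the highest members and did not differ beyond their spread. Myl3 at 5259 ± 1077 and Tnni3 at 5235 ± 979 followed, and these also lay within their spread of each other. Tnnc1 came next at 2994 ± 454. In lung, Myh6 was again the highest at 79.8 ± 35.6, followed by Nebl at 55.3 ± 23, Tnni3 at 52.4 ± 27.5, Mb at 35.8 ± 14.1 and Des at 30.3 ± 15, and the ranges of these 5 overlapped. Depth and Rn7s1 are shared by the genes of a library, and within a library Myh6 lay above Tnni3, Mb and Des in 6 of 6 lungs and above Nebl in 4 of 6. Nebl held rank 26 of 40 in heart and rank 2 in lung on this scale, and Myl3 went from rank 3 to rank 14.

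Upstream sequence was examined because the members were lower in lung as a group. The RefSeq promoter table (GRCm38.p6, 250 bases before to 50 after each start) held 47 windows for 34 of the 40 members. The MEF2 site, bound by MEF2 factors of muscle genes, was found on either strand in 14.89% of these windows and in 3.19% of all 32851 windows. The CArG box, the site of serum response factor, was found in 12.77% and 1.63%. The letters CATTCC, the core of TEAD sites, were found in 27.66% and 14.66%. The GATA site AGATAA was found in 19.15% and 11.18%, and the TATA box TATAAA in 17.02% and 13.62%. The shares among member windows rest on 7, 6, 13, 9 and 8 of the 47 windows, in the order given. Windows of alternative starts of a gene can overlap, and a match describes letters only. Whether the motifs go with the lower level in lung was not tested. The 250 bases before the start are shown for 1 gene with a MEF2 site and 1 with a CArG box, with the site in capitals: Myoz2, the alpha-actinin and calcineurin binding protein calsarcin-1 (chr3:123034988-123035237, minus strand), and Myl3 (chr9:110763428-110763677, plus strand), both in GRCm38.p6.
Myoz2: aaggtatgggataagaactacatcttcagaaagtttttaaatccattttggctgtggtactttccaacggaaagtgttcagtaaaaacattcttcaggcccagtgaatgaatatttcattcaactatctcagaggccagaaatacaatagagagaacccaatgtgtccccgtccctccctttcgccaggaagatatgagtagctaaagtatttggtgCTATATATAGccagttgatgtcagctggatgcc
Myl3: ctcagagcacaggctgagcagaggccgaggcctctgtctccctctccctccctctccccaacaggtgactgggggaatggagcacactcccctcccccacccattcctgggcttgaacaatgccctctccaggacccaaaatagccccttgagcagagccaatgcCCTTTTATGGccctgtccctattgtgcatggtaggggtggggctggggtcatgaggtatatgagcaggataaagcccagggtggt

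The next question was whether heart and lung used the same transcripts of a member. Of 131 member transcripts tested in 28 genes, 61 in 20 genes were called for usage between lung and heart (limma diffSplice, adjusted p under 0.05). Of all 36591 transcripts tested, 21.1% were called. The test sets a transcript's log2 difference against those of the gene's other transcripts, and minor ones can hold few or no reads in lung. A call therefore need not be a change of share. The main Myl3 transcript was called at -3.36 with mean shares of 99.7% in heart and 99.6% in lung. That of Myh7b was called at -2.54 while its mean share rose from 96.4% to 100%. By its mean share the leading transcript differed between the tissues for 6 members, Ckm, Flnc, Myom1, Nebl, Pdlim5 and Synpo2l. The heart form of each led in 6 of 6 hearts. The lung form led in 6 of 6 lungs for Nebl and Pdlim5, in 5 for Ckm, in 4 for Myom1 and Synpo2l, and in 2 for Flnc. The shares given next are shares of a gene's estimated counts, and the transcripts were chosen after these shares had been seen.

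For Nebl (chr2:17347467-17736275, minus strand, GRCm39), the 28-exon transcript ENSMUST00000124270.8 held 80.3%, 83.1% and 83.2% in the WT hearts and 81.1%, 81.0% and 78.7% in the KO hearts. In the lungs it held 1.92% to 2.77%. The 7-exon transcript ENSMUST00000028080.12 held 91.0%, 91.9% and 88.5% in the WT lungs, 91.3%, 91.0% and 92.2% in the KO lungs, and 3.68% to 6.82% in the hearts. The tissues did not overlap for either form, and the usage test called both (adjusted p = 2.58e-17 and 1.37e-11). The 28-exon transcript alone was lower in lung by 6.34 log2 units, close to the median of the members, whereas the 7-exon transcript was higher in lung by 2.94. The gene is known to encode, besides the long nebulette of cardiac muscle, a shorter protein with a LIM domain that is found in non-muscle cells. The transcripts start 270156 bases apart and share 3 exons. The sequences across the junction into the first shared exon show where the forms join, in 5′ to 3′ order, with the shared exon in capitals.
Nebl, 7 exons: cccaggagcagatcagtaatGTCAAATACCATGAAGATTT
Nebl, 28 exons: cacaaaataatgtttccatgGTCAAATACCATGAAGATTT

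The 250 bases upstream of each start differed in composition. The window of the 7-exon form (chr2:17735900-17736149, minus strand, GRCm39) had 72.4% G and C and 28 CG pairs, and the window of the 28-exon form (chr2:17465744-17465993) had 34.4% and 2. The TEAD core CATTCC, in capitals, was found in the latter window, and the other 4 motifs were found in neither. In the RefSeq promoter table described above, by contrast, Nebl was among the members with a CArG box, CATTCC and AGATAA.
Nebl, upstream of 7 exons: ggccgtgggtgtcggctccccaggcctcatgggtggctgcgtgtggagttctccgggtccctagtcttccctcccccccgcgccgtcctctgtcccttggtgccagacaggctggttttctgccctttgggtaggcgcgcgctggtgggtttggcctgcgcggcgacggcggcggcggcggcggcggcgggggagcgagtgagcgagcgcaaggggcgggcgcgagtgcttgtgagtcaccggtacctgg
Nebl, upstream of 28 exons: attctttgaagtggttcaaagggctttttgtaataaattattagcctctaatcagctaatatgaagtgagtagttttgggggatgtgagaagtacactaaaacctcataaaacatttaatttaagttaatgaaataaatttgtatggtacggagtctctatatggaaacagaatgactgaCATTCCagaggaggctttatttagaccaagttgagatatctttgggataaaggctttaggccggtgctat

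Pdlim5 (chr3:141945345-142101830, minus strand, GRCm39) also differed in form between the tissues. The 13-exon transcript ENSMUST00000029941.16 held 84.1%, 85.4% and 79.8% in the WT lungs and 87.5%, 87.4% and 87.8% in the KO lungs, and 7.12% to 9.29% in the hearts (adjusted p = 7.26e-09). The 9-exon transcript ENSMUST00000170361.9 held 65.3%, 55.0% and 63.8% in the WT hearts and 64.6%, 56.5% and 60.2% in the KO hearts, and 4.35% to 7.75% in the lungs (adjusted p = 0.0102). Between lung and heart the 9-exon transcript differed by -6.57 (log2), while the 13-exon transcript differed by only 0.15. Short forms of this protein without its LIM domains are known from striated muscle. Both transcripts hold the same exon at chr3:142009704-142009740 and part after it, as the junction sequences show, with the shared exon in capitals.
Pdlim5, 13 exons: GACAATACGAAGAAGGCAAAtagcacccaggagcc
Pdlim5, 9 exons: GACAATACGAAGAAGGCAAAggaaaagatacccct

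Myom1 and Flnc each differed by inclusion of 1 exon whose length is a multiple of 3. In Myom1 the 38-exon transcript, which holds an exon of 294 bases at chr17:71389198-71389491 (plus strand, GRCm39), had 55.5%, 37.6% and 71.1% in the WT lungs and 52.2%, 45.2% and 36.7% in the KO lungs, and 8.61% to 14.8% in the hearts. The transcript without it held 82.4% to 85.7% in the hearts and 13.9% to 55.0% in the lungs. The share of the 38-exon form was higher in lung in 6 of 6 mice (exact paired sign permutation test, two-sided, p = 0.03125). The form was chosen by these same shares, so this p is not independent evidence of a difference. The usage test, which sets a transcript against the other transcripts of its gene, called the form without the exon (adjusted p = 0.00474) and not the form with it (adjusted p = 0.742). A myomesin form with an added segment is known from embryonic heart. The exon reads as follows.
Myom1 exon: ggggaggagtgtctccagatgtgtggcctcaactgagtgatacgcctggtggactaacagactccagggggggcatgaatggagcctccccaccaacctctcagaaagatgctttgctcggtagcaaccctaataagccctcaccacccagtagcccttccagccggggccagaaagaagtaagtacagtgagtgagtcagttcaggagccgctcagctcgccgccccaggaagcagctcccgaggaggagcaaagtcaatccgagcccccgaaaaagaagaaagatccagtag

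In Flnc (chr6:29433072-29461887, plus strand) the 48-exon transcript, with an exon of 99 bases at chr6:29452798-29452896, held 0.91% to 2.62% in the hearts. In the lungs it held 21.1%, 49.7% and 47.8% in WT and 36.4%, 99.1% and 87.6% in KO, so that the lungs spread widely but did not reach the hearts. The share was higher in lung in 6 of 6 mice by the same test (p = 0.03125, exact). This form, too, was chosen by the shares tested. The usage test also called it (adjusted p = 3.56e-05).
Flnc exon: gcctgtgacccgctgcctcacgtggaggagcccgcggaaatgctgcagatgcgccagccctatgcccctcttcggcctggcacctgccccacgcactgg

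**Figure D4:**
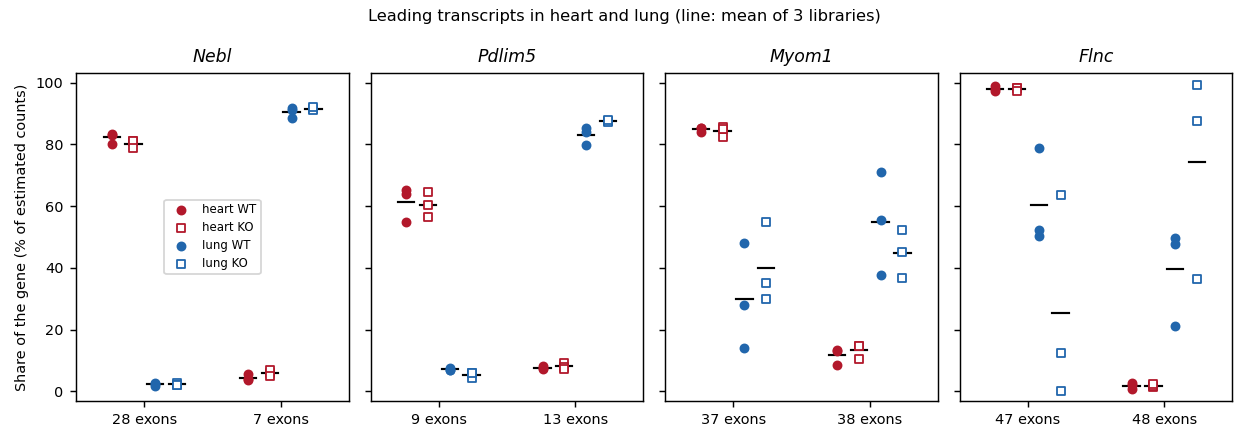
Share of a gene's estimated counts (%) held by the transcript that leads by mean in heart and the one that leads by mean in lung for Nebl, Pdlim5, Myom1 and Flnc, as points for each library and lines for the mean of 3. For Nebl and Pdlim5 heart and lung lie far apart with little spread, and for Flnc the lungs run from 21.1% to 99.1% of the 48-exon form.

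Adam19 KO and WT hearts were then compared. None of the 40 members was called by limma, nor by limma-voom on recovered counts, at a background of 0.085% of 15303 genes called (13 genes). At an unadjusted p under 0.05 there were 1 higher and 2 lower members, or 3 of 40, beside 7.46% of all genes. Each limma p sets a difference against the spread between mice within the groups, with the variance drawn toward a trend over all genes. The median over the members was -0.07 (log2) against 0.03 over all genes, and 14 of 40 lay above 0, beside 55% of all genes. The median difference was -0.03 in the thick filament, -0.08 in the thin filament, 0.00 for titin and the M-band, -0.10 for the Z-disc, -0.05 for assembly and turnover genes and 0.11 for the energy genes. Over all members the differences ranged from -0.69 for Nexn to 0.69 for Tcap.

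Tcap, the titin cap of the Z-disc, had the smallest p of the members in heart. It read 15.10, 14.81 and 14.68 in the WT hearts and 15.62, 15.47 and 15.57 in the KO hearts, and the groups did not overlap. Across all genes, 7.82% had every KO heart above every WT heart. The difference was 0.69 ± 0.16 (log2, SE), with adjusted p = 0.378 by limma and p = 0.10 in an exact two-sided permutation test, the smallest that 3 against 3 allows. In lung Tcap read 9.91, 9.38 and 8.78 in WT and 9.65, 9.16 and 8.62 in KO. Tcap (chr11:98274637-98275779, GRCm39) and Unc45b (chr11:82798587-82836306) were the 2 members on the chromosome of Adam19 (chr11:45946775-46038172), 52.24 and 36.76 Mb from its end, and effects of the targeted chromosome cannot be told apart from those of the lost protein.

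The members with the next smallest p had lower means in the KO hearts, and none passed the test. Nexn read 11.85, 12.77 and 11.90 in WT and 11.38, 11.92 and 11.15 in KO, a difference of -0.69 ± 0.27 (log2, SE) with adjusted p = 0.647. The groups overlapped, and without heart WT replicate 2, the highest library, it was -0.39, while it was -1.04 without the hearts with the lowest atrial sums, WT replicate 3 and KO replicate 2. Mypn, or myopalladin, read 11.53, 11.99 and 12.13 in WT and 11.38, 11.68 and 11.15 in KO, a difference of -0.48 ± 0.19 (log2, SE). Cmya5 read 15.93, 16.18 and 15.83 in WT and 15.60, 15.65 and 15.76 in KO and did not overlap, as did 5.23% of all genes in that direction. Its difference was -0.31 ± 0.16 (log2, SE). Alpk3 at 12.38, 12.64 and 12.88 in WT and 12.11, 12.78 and 12.04 in KO, and Synpo2l at 11.74, 12.25 and 12.22 in WT and 11.75, 12.17 and 11.26 in KO, overlapped between genotypes. They differed by -0.32 and -0.34, and by -0.19 and -0.11 without heart KO replicate 3 and -0.56 and -0.57 without heart KO replicate 2. The adjusted p of these members was 0.647 or more.

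None of the members with the highest heart level in each role was called between genotypes. The differences were 0.05 for Myh6, -0.15 for Actc1, 0.01 for Ttn, -0.31 for Cmya5, 0.20 for Mylk3 and 0.11 for Mb, each with a standard error of 0.15 to 0.35. Their values in every heart, given above, overlapped between genotypes except for Cmya5. Of 8 smooth muscle markers, 5 had every KO heart above every WT heart, beside 7.82% of all genes. The 8 had a median of 0.71 and a summed level of 13.86 to 14.14 in WT and 14.42 to 14.62 in KO. None of the 8 was called, and the part of this difference in the members' values was not tested. Leaving out heart WT replicate 3 and heart KO replicate 2, the hearts with the lowest atrial sums, the members' median was -0.06 and none was called.

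In lung, KO against WT, 39 members passed the filter on low values, all but Myh7b, which read 2.90, 2.57 and 0.66 in WT and 1.65, 2.08 and 2.43 in KO. None of the 39 was called by limma or limma-voom, at a background of 0.0665% of 16551 genes (11 genes). Of the 39, 6 lay above 0, beside 51.6% of all genes, and 33 below. Their median was -0.30, while the median over all genes was 0.01, and it was -0.47 without lung KO replicate 1. At an unadjusted p under 0.05 there were 1 higher and 8 lower members, or 9 of 39, beside 5.93% of all genes. The 3 KO lungs lay below the 3 WT lungs for 8 members and above them for 1, as was the case for 6.4% and 6.41% of all genes. Members were read in the same libraries and are not independent of each other.

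Of the 8 members below WT without overlap, Smpx had the smallest p. It read 6.87, 6.88 and 7.04 in the WT lungs and 6.37, 6.19 and 5.87 in the KO lungs, a difference of -0.79 ± 0.23 (log2, SE) with adjusted p = 0.806. Ckm read 9.12, 9.59 and 9.17 in WT and 8.86, 8.47 and 7.81 in KO, a difference of -0.91 ± 0.27 (log2, SE). Actn2 read 8.82, 8.62 and 9.09 in WT and 8.48, 8.04 and 7.87 in KO, a difference of -0.71 ± 0.22 (log2, SE). In each of these the 3 KO lungs lay below the 3 WT lungs, and none passed adjustment over all genes. Tnnc1 read 8.96, 8.26 and 9.33 in WT and 8.22, 7.75 and 8.002 in KO, a difference of -0.86 ± 0.28 (log2, SE). Myl3, whose values are given above, differed by -0.96 ± 0.33 (log2, SE), and by -0.64 without lung KO replicate 2. Myom1, Obsl1 and Mb completed the 8, at -0.57, -0.60 and -0.31. The adjusted p of the 8 was 0.806 or more, and with 3 lungs against 3 an exact permutation test of a member cannot go below p = 0.10. Myh6 differed by -0.84 ± 0.31 (log2, SE), and its groups overlapped. It differed by -0.52 without lung WT replicate 3 and by -0.34 with summed transcripts.

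By role, the median in KO lungs was -0.59 for the 4 thick filament genes tested, -0.26 for the thin filament, -0.49 for titin and the M-band, -0.23 for the Z-disc, -0.09 for assembly and turnover genes and -0.31 for the energy genes. The other striated muscle genes had a median of -0.40, with 0 of 21 called. Actc1, at 11.06, 10.89 and 10.70 in WT and 11.09, 10.97 and 10.66 in KO, and Nebl, with values given above, lay above 0, at 0.03 and 0.11. The summed level of the atrial markers was 12.52, 11.78 and 12.90 in the WT lungs and 12.01, 11.87 and 11.08 in the KO lungs, with none of the 4 tested called and a median of -0.68. The skeletal markers had a median of -1.18, with lung WT replicate 2 far above the other lungs. All 10 tested lay below 0 and none was called, and without that library their median was -0.05 with 6 of 10 below 0. The 5 red cell markers also lay below 0, with a median of -1.08, a summed level of 14.91, 14.97 and 16.66 in WT and 17.16, 12.85 and 13.45 in KO, and 0 of 5 at an unadjusted p under 0.05. Their part in the members' values was not tested. Without lung WT replicate 2 the members' median was -0.31 and 28 of 39 lay below 0. The amount of pulmonary vein muscle in each piece of lung and its part in these differences was not tested.

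Unc45b was the member with the smallest p in lung and the only member above WT without overlap. It read 7.78, 8.68 and 7.74 in the WT lungs and 9.34, 9.04 and 9.90 in the KO lungs, a difference of 1.36 ± 0.31 (log2, SE) with adjusted p = 0.678. Without lung WT replicate 2 it was 1.66 with adjusted p = 0.209. In the hearts it read 12.17, 12.06 and 12.46 in WT and 12.36, 12.35 and 12.48 in KO. The size depended on how transcripts were combined. Summed estimated counts gave 0.83, the 20-exon full-length transcript ENSMUST00000018989.14 gave 0.68, and a 6-exon transcript of 498 bases, ENSMUST00000142336.2, gave 1.88 (exact permutation p = 0.10 for each). The short transcript held 4.47%, 9.97% and 9.50% of the gene in the WT lungs and 14.6%, 12.4% and 23.8% in the KO lungs, and at most 1.37% in the hearts. Its difference rests on few reads. It had 8.35, 26.12 and 19.33 estimated counts in the WT lungs and 69.52, 69.43 and 87.65 in the KO lungs. Its mean value in the hearts was 5.06 in WT and 6.24 in KO.

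**Figure D5:**
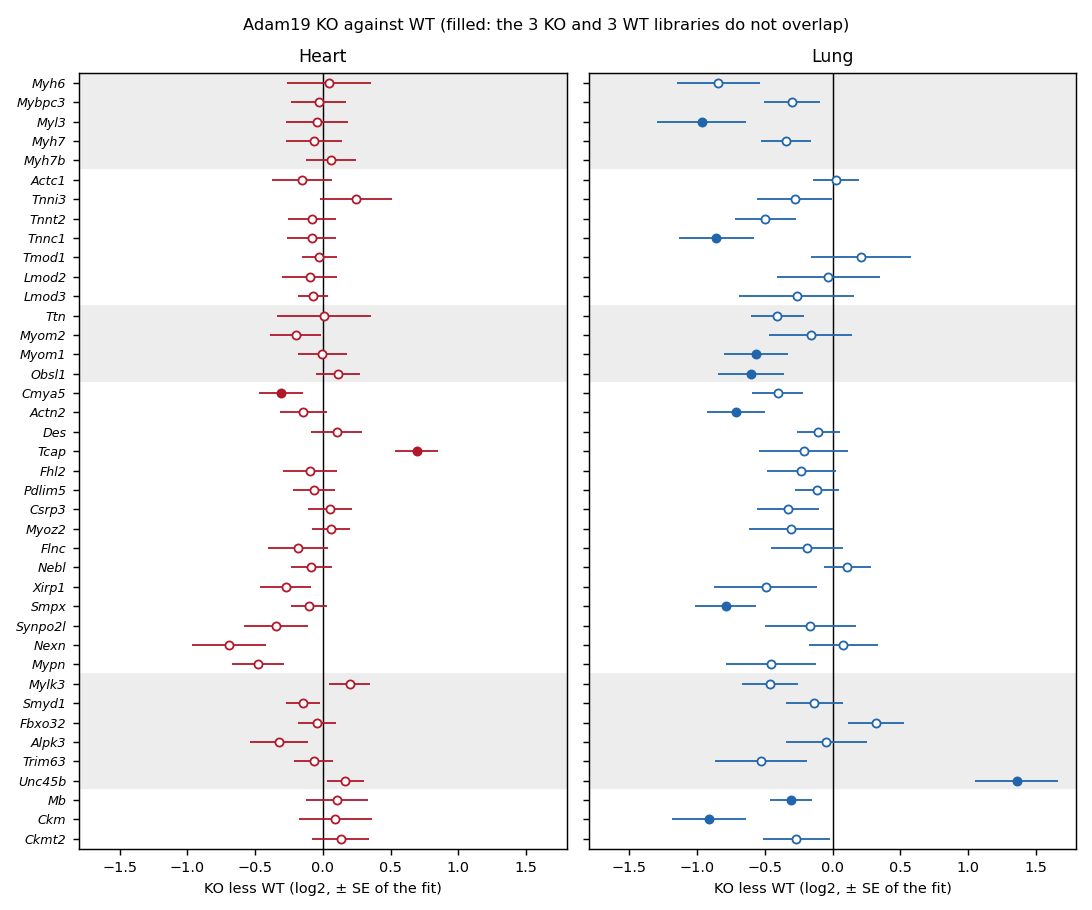
Difference between KO and WT (log2) of each member in heart (left) and lung (right) with the standard error of the fit, filled where every KO library lies on the same side of every WT library and open otherwise. In heart the points scatter around 0 with Tcap at 0.69, and in lung 33 of 39 lie below 0 with Unc45b at 1.36.

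Whether the genotype effect differed between lung and heart was tested in a fit of all 12 libraries. No member was called by limma or limma-voom, at a background of 0.00566% of 17666 genes (1 gene, or 2 with the mouse as a block). At an unadjusted p under 0.05 there were 1 member with a higher and 8 with a lower effect in lung, beside 7.88% of all genes. Unc45b differed by 1.195 ± 0.36 (log2, SE) with adjusted p = 0.517, and by 0.73 with summed transcripts and 1.5 without lung WT replicate 2. Smpx differed by -0.69 ± 0.21 (log2, SE) with adjusted p = 0.526, and Tcap by -0.91 ± 0.40 (log2, SE) with adjusted p = 0.632.

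Spread between libraries was also compared. The SD of a member within a group had a median of 0.21 in WT hearts and 0.21 in KO hearts, and of 0.37 in WT lungs and 0.29 in KO lungs. Over all genes the medians were 0.26, 0.21, 0.30 and 0.20. Nexn had the highest SD in WT hearts at 0.52 and Synpo2l in KO hearts at 0.45. The submitters' table marked 34 of the 40 members as detected, leaving out Myh7b, Lmod3, Synpo2l, Mypn, Xirp1 and Trim63. No member was at 0 in any library.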

How the data were processed

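Stranded total RNA of heart and lung from 3 WT and 3 Adam19 KO mice was sequenced, and 12 libraries were grouped by the tissue and genotype in the submitters' labels. The authors quantified reads against GENCODE transcripts of mouse genome mm39 with Salmon and deposited log2 values for 55679 genes and 147907 transcripts. The submitters' processing notes also name cutadapt, STAR and limma 3.42.2, without their roles. The deposited transcript values are log2(1 + estimated count). For genes with 1 transcript the deposited gene values equal these plus a constant per library, to within 0.01 in 94.7% to 98.6% of such genes. For 9489 genes with several transcripts, the gene values were closer to a sum weighted by transcript length (median difference 0.0164) than to a plain sum (0.0467), and how transcripts were combined is not given in the sources used here. Estimated counts limit the precision of low values, and Rn7s1 and other abundant RNAs took unequal parts of the libraries.

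Because the values are log2 and not counts, limma 3.58.1 (lmFit and eBayes with trend, R 4.3.3) was run on them over all genes with a value of at least 3.46, or log2(1 + 10), in 3 or more libraries. A gene was called when its Benjamini-Hochberg adjusted p was below 0.05, it differed by 1.5-fold or more, and its highest group mean reached 6. KO and WT were compared within each tissue, and lung with heart, and the genotype effect between tissues, in a fit of 12 libraries. Transcript usage was tested with limma diffSplice. Transcript lengths and exons were taken from a later GENCODE release than the one the authors used. It held 99.5% of the transcripts, and levels per length used its lengths. Exact permutation tests were two-sided. The steps were tested on simulated data. Tables and figures were made with Python 3.11.15, pandas 2.3.3, numpy 2.4.6 and matplotlib 3.10.9.

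The members and marker lists were chosen with earlier results of these data known. Within a comparison, members were given in every library when they were called against WT, were among the 6 with the smallest p, were among the 6 most or 6 least reduced in lung, or had the highest heart level of their role, and the others by ranges. Heart and lung libraries of equal number come from the same mouse, by the animal names in the labels. Their deviations from the group means correlated at 0.049, 0.136 and -0.024 in the WT mice and 0.02, -0.068 and -0.036 in the KO mice over 17666 genes. The alternatives tried were other filters, scalings, a pseudocount of 10, no variance trend, limma-voom, summed transcripts, the mouse as a block, all 12 libraries in the fit, longest transcripts as lengths, and leaving out each library. Leaving out the less atrial hearts, and the lungs high in Rn7s1, was chosen after the data were seen.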

Additional observations from a re-analysis of the deposited data

How the results depend on the processing

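All 40 members were lower in lung than in heart under every alternative in which they were tested, and 39 were tested with a filter of 10 counts in every library. No member was called between KO and WT in heart, in lung or between the tissues under any alternative run. Scaling to library totals without 7SL and mitochondrial RNA moved the median of all genes between lung and heart from 0.31 to 0.90 and that of the members to -5.86. That scaling gave 8198 genes higher and 2327 lower in lung, against 5326 and 3744 in the values above, 4474 and 4391 with median-of-ratios scaling and 4579 and 4400 with limma-voom. The number of genes called in heart between KO and WT was 13, and 7 with the filter of 10 in every library, 21 with all 12 libraries in the fit, 31 without the less atrial hearts, and 10 to 21 when each library was left out, with 21 without heart KO replicate 2. In lung it was 11, and 1 with the filter of 10 in every library. For the difference of genotype effects it was 1, and 4 with a pseudocount of 10, 2 with the mouse as a replicate block, and 0 without heart KO replicate 1 to 5 without heart WT replicate 3. With the block 9076 genes in place of 9070 were called between lung and heart and 62 member transcripts in place of 61 for usage, and no call of a member gene changed. With longest transcripts as lengths, Myh7 made up 5.55% of the heavy chains in heart and Nebl ranked 3 in lung in place of 2. Adam19 in heart had adjusted p = 0.0601 by limma without a variance trend. For Pdlim5 and Unc45b, summed transcripts moved the difference between lung and heart by over 1.5-fold. The causes of these moves were not tested. With 3 mice per group, a member's difference between KO and WT that missed the threshold is not shown to be absent.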
